A study of Homo sapiens with 2 samples.

Results

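Heat shock proteins and chaperonins are the chaperones that fold new and damaged proteins. Levels of 10 of their genes were read in H9, a human embryonic stem cell line in long-standing use: HSPD1, HSPE1, HSPA1A, HSPA5, HSPA8, HSPA9, HSP90AA1, HSP90AB1, HSPH1 and HSPB1. They were taken from the deposited table by gene name, which gave 10 of its 20263 genes and 59 of its 95139 transcripts. The study addressed splicing in the self-renewal of these cells. One group was treated for 48 h with small interfering RNA against HNRNPA1 (siHNRNPA1), the gene of an RNA-binding protein that regulates splicing, and the other for 48 h with a control small interfering RNA (sicontrol). Both groups are H9 cells with no other labelled alteration. Each group has 1 library, so no comparison here has a replicate check and no p-value is given. Intervals are exact 95% Poisson or Clopper-Pearson intervals on estimated counts and cover counting error only.

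Chaperones act by compartment and by class. HSP60, encoded by HSPD1, and its lid HSP10, encoded by HSPE1, form the chaperonin of the mitochondrial matrix. HSP70 proteins bind unfolded stretches in cycles of ATP hydrolysis, helped by J-domain proteins and by nucleotide exchange factors such as HSPH1. HSP90 proteins act later, on nearly folded clients such as kinases and receptors, and small heat shock proteins hold aggregating proteins without using ATP. The genes induced by stress are driven by heat shock factors, which bind repeats of the bases GAA in alternating orientation, the heat shock element. Pluripotent stem cells are known for high levels of many chaperones.

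The libraries held 28147828 estimated counts (siHNRNPA1) and 26680342 (control). HNRNPA1 stood at 179.9 FPKM with siHNRNPA1 and at 663 FPKM in control (FPKM are fragments scaled to transcript length and library size), which is 27.1% of control and agrees in direction with the labels. All 12 listed markers of pluripotent cells had a mean level of at least 1 FPKM, and their summed level was 2491 FPKM in each library. That equal sum hides members that differed: 4 were at least 2-fold lower with siHNRNPA1 and 1 higher, with a median fold (log2 scale) of -0.20. The lower ones were LIN28B (fold -1.63), PODXL (101.7 FPKM and 312 FPKM), DPPA4 (119 FPKM and 346 FPKM) and SOX2 (fold -1.10). PRDM14 (fold 1.64) was the higher one. POU5F1, the most abundant, was within 2-fold at 1355 FPKM and 864 FPKM (fold 0.65). Of 10 fibroblast markers, 4 (COL3A1, LUM, DCN and FAP) were at 0 in both libraries and 5 had a mean of at least 1 FPKM. These 5 were THY1 (181.5 FPKM and 232.5 FPKM), VIM (37.6 and 83.2), COL1A1 (25.0 and 14.5), COL1A2 (8.38 and 13.3) and PDGFRB (2.65 and 3.61). The summed level of the list was 255 FPKM and 348 FPKM (siHNRNPA1 and control), mainly THY1, so the sum says little about the other markers. The endoderm and mesoderm list summed to 5.195 FPKM and 4.27 FPKM, with SOX17 and GATA6 at 0 in both libraries and FOXA2 at 1.52 FPKM (123 counts) with siHNRNPA1 and at 0 in control. The neural list summed to 214 FPKM with siHNRNPA1 and 78.5 FPKM in control, mainly NES and TUBB3. The 13 mitochondrially encoded genes took 18.1% of all TPM with siHNRNPA1 and 28.2% in control. The part of these differences in the values below was not tested.

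The 10 genes made up 0.665% of all FPKM with siHNRNPA1 and 0.881% in control, as summed levels of 3463 FPKM and 4129 FPKM. In bulk RNA, fewer cells of a type and less RNA per cell cannot be told apart. Differences are given as folds on the log2((siHNRNPA1 + 1)/(control + 1)) scale of FPKM, which understates the change of low genes, and higher or lower means a difference of at least 2-fold on that scale. None of the 10 genes was at least 2-fold higher, against 12.4% of the 11921 genes with a mean of at least 1 FPKM. 2 genes, HSP90AA1 and HSPH1, were at least 2-fold lower, against 21.9% of those genes, so the count is close to the background share. The median fold of the 10 was -0.38, beside -0.13 over all 11921 genes.

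**Figure D1:**
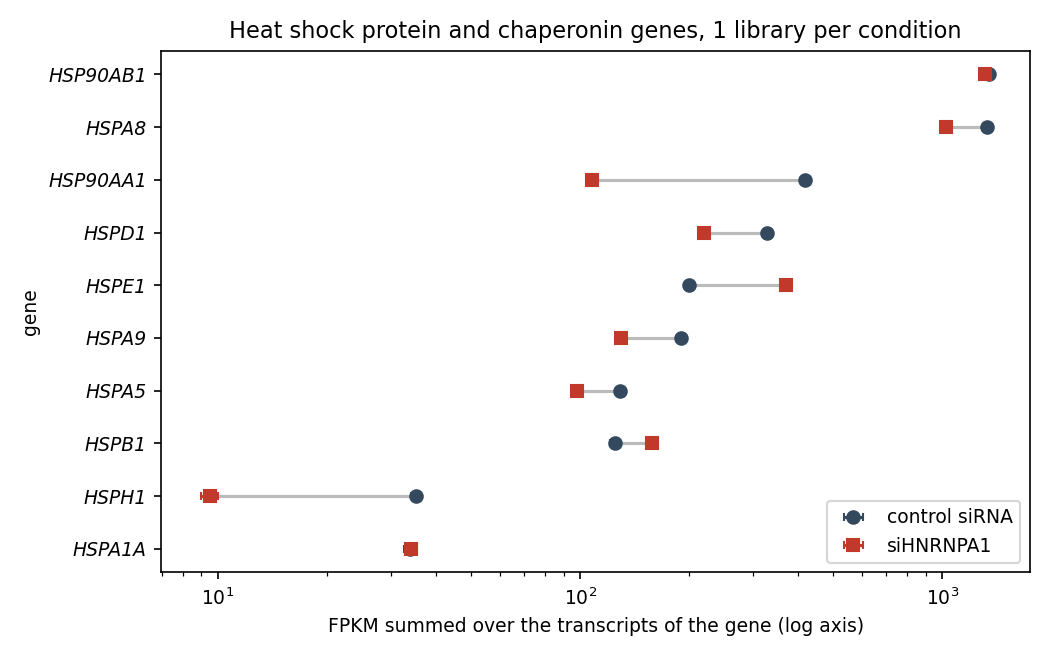
FPKM of each of the 10 heat shock protein and chaperonin genes in the siHNRNPA1 and control libraries (log axis), with bars for the exact 95% Poisson interval of the estimated counts and 1 library per condition. HSP90AA1 (107.5 and 417 FPKM) and HSPH1 (9.49 and 35.2 FPKM) show the widest gaps, HSPE1 (371 and 200.1 FPKM) is the gene with the widest gap in the other direction, and HSP90AB1 and HSPA1A nearly coincide.

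The mitochondrial chaperonin genes differed in opposite directions. HSPD1 (ENSG00000144381, chr2:197486581-197516737, minus strand, GRCh38) stood at 219 FPKM (216 to 223) with siHNRNPA1 and 328 FPKM (324 to 332) in control, a fold of -0.58. HSPE1 (ENSG00000115541, chr2:197499994-197503457, plus strand) stood at 371 FPKM (364 to 378) and 200.1 FPKM (195.04 to 205), a fold of 0.89. The control library had more HSPD1 than HSPE1 and the siHNRNPA1 library the reverse: the ratio of HSPD1 to HSPE1 FPKM was 0.591 with siHNRNPA1 and 1.64 in control. After subtraction of the median fold of genes alike in level, GC content and length (described below), HSPD1 stood at -0.16 and HSPE1 at 0.25. The pair is annotated head to head, with the first exons of the main forms overlapping on opposite strands. HSPD1-201 shares 115 bases with HSPE1-201, and HSPD1-202 shares 54 bases with it. The sources do not state whether reads were counted by strand, so reads from the overlap cannot be assigned with certainty. A readthrough transcript unit, HSPE1-MOB4, that starts within HSPE1 was at 6.44 FPKM and 1.08 FPKM.

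Nearly all HSPD1 signal was assigned to a different annotated form in each library. HSPD1-201 (2299 bases) was at 291.8 FPKM in control, from 20777 estimated counts, and at 9.8e-05 FPKM with siHNRNPA1, from 1 count. HSPD1-202 (2455 bases) was at 12.5 FPKM in control, from 948 counts, and at 217 FPKM with siHNRNPA1, from 17687 counts, a fold of 4.02. HSPD1-202 made up 99.03% of HSPD1 FPKM with siHNRNPA1 and 3.80% in control. The 1 count listed for HSPD1-201 does not match its FPKM, which was 4.47e-05% of the gene with siHNRNPA1. An interval on 1 count among the 17744 of the gene, 0.00014% to 0.0314% of counts, lies above that share. Such an interval does not cover the assignment of reads between overlapping forms. Both forms have 12 exons, share 2184 exonic bases and carry the same 573-residue reading frame, so together the frame stood at 217 FPKM and 304 FPKM, a fold of -0.48. They differ at the start: the first exon of HSPD1-201 is 115 bases long, and these are all the bases found in HSPD1-201 and not in HSPD1-202. HSPD1-202 has 271 bases not found in HSPD1-201, and 54 of its bases lie within HSPE1-201. The assignment of a count to either form therefore rests largely on reads over the first exons. All of these 115 bases also lie inside the first exon of HSPE1-201 on the opposite strand. Since counting by strand is not stated, reads there cannot be told from HSPE1 reads with certainty. HSPD1-209, an incompletely annotated form that starts between them, was at 1.17 FPKM and 16.2 FPKM (fold -2.99), and HSPD1-208, annotated for nonsense-mediated decay (the pathway that degrades transcripts with an early stop codon), was at 0.796 FPKM and 4.98 FPKM (fold -1.74). All 4 HSPD1 forms with a mean of at least 1 FPKM thus passed 2-fold, 3 lower and HSPD1-202 higher. HSPE1 showed no such exchange: HSPE1-201, which encodes the 102-residue HSP10, held 97.5% of the gene with siHNRNPA1 and 99.2% in control, at 361 FPKM and 198.6 FPKM. The minor HSPE1-202, which starts further downstream, was at 8.04 FPKM and 0.977 FPKM, a fold of 2.19.

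**Figure D2:**
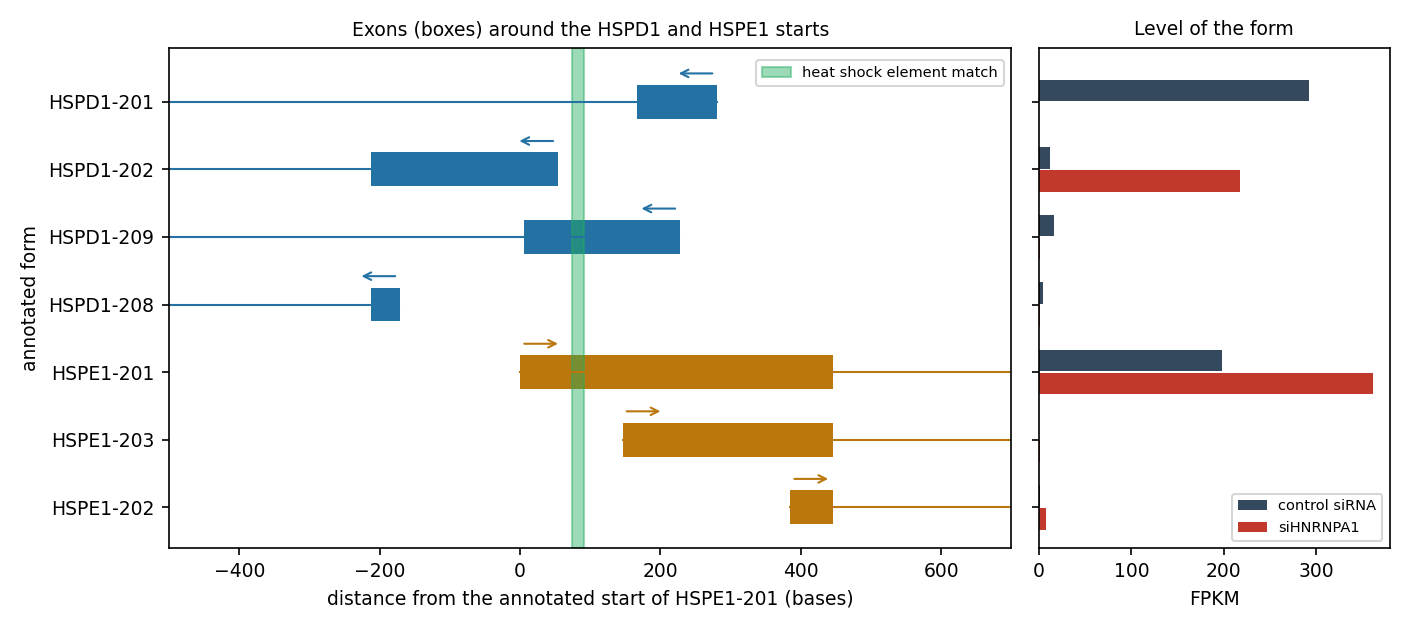
Exons around the start of HSPD1 and HSPE1 as distance in bases from the annotated start of HSPE1-201 (left; arrows give the direction of transcription, the green band the heat shock element match), and the FPKM of each form in the 1 library of each condition (right). The control library has its HSPD1 signal in HSPD1-201 (291.8 FPKM) and the siHNRNPA1 library in HSPD1-202 (217 FPKM), whose start lies on the other side of the element, while HSPE1-201 is the main HSPE1 form in both.

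The element between those starts is shown because the 2 HSPD1 forms begin on either side of it. The search took the heat shock element as GAA, any 2 bases, TTC, any 2 bases and GAA, on both strands, in the RefSeq promoter windows (GRCh38.p14, 250 bases before to 50 after a gene start). It was found in 172 of 35116 windows (0.490%), and in 4 of the 14 windows of the 10 genes, those of HSPD1, HSP90AB1, HSPA8 and HSP90AA1. The shorter pairs, GAA, any 2 bases and TTC, or TTC, any 2 bases and GAA, both contained in such a match, were in 6.77% and 7.74% of all windows. A match describes the letters and not a bound site. No mismatch was allowed, so an element with imperfect repeats would not be found. Each sequence runs 5′ to 3′ on the strand of the named gene, with the match in capitals.
HSPD1: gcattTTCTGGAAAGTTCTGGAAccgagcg
HSP90AA1: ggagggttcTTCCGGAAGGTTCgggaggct
HSPA8 first match: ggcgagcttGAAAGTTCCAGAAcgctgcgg
HSPA8 second match: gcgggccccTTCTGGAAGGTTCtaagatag
HSP90AB1 first match: gggagcaggTTCTGGAAGATTCatgggctc
HSP90AB1 second match: ctgagattgTTCTGGAAGCTTCtggattct
The HSPD1 stretch is chr2:197500061-197500090 (minus strand), and its run of 18 bases lies inside an exon of HSPE1-201 and of HSPD1-209, 21 bases before the start of HSPD1-202. The HSP90AA1 stretch is chr14:102087112-102087141 (minus strand), in an exon of HSP90AA1-201 and 76 bases before the start of HSP90AA1-203. The HSPA8 stretches are chr11:123062346-123062375 and chr11:123062171-123062200 (minus strand). The HSP90AB1 stretches are chr6:44247769-44247798 and chr6:44247822-44247851 (plus strand), in no annotated exon, 76 and 23 bases before the start of HSP90AB1-202. Forms of these genes that start within 100 bases after a match did not go in 1 direction. HSPD1-202 (fold 4.02) and HSP90AB1-202 (fold 3.21) were higher, and HSPA8-202 (-2.13), HSPA8-205 (-3.16), HSPA8-212 (-1.42) and HSP90AA1-203 (-2.67) were lower. HSPA8-221 (-0.67), HSPA8-210 (-0.66) and HSPA8-224 (-0.36) were within 2-fold, the last pair with means under 1 FPKM.

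The HSP70 genes in the set cover the stress-inducible, the constitutive, the reticulum and the mitochondrial member. HSPA1A (ENSG00000204389, chr6:31815464-31817946, plus strand), the stress-inducible HSP70, was at 34.2 FPKM with siHNRNPA1 and 33.9 FPKM in control, a fold of 0.01. Its near-identical neighbour HSPA1B was at 43.2 FPKM and 37.4 FPKM. The coding sequences of the pair differ at 4 of 1923 bases (99.8% the same), so the split between them is uncertain; summed, they stood at 77.4 FPKM and 71.3 FPKM, a fold of 0.12. The exon-free part of the HSPA1A promoter window, the 171 bases chr6:31815293-31815463 on the plus strand, is shown because HSPA1A is the textbook target of heat shock factors and its level barely differed. It holds no full match and 1 shorter pair of GAA, 2 bases and TTC, in capitals. Since the search allowed no mismatch, this does not show that the promoter lacks a heat shock element.
HSPA1A: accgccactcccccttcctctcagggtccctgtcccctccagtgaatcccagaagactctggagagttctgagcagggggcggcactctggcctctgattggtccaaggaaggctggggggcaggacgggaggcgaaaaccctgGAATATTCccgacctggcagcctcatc
HSPA5 (ENSG00000044574, chr9:125234853-125241330, minus strand), the HSP70 of the endoplasmic reticulum known as BiP, was at 98.2 FPKM (96.5 to 99.9) and 128.8 FPKM (127 to 131), a fold of -0.39. It has 1 form in the table, so no exchange between forms could be measured. HSPA9 (ENSG00000113013, chr5:138554882-138575444, minus strand), mortalin, the HSP70 of the mitochondrial matrix and of its protein import motor, was at 129.7 FPKM and 190.3 FPKM, a fold of -0.55. The form with its complete 679-residue frame, HSPA9-201, was closer between the libraries, at 120 FPKM and 138 FPKM (fold -0.20). Most of the gap came from HSPA9-204, a form annotated for nonsense-mediated decay, at 2.96 FPKM and 38.9 FPKM (fold -3.33), which is 2.28% of the gene with siHNRNPA1 and 20.4% in control. All 887 bases of HSPA9-204 lie within exons of HSPA9-201, so the forms share every base of the shorter one.

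HSPA8 encodes HSC70, the constitutive cytosolic HSP70, and was among the 2 most abundant of the 10 genes in the control library, with HSP90AB1. HSPA8 (ENSG00000109971, chr11:123057489-123063230, minus strand) stood at 1026 FPKM with siHNRNPA1 and 1324 FPKM in control, a fold of -0.37. Its estimated counts, which do not depend on form length, were 58185 and 59150, a fold of -0.10 when scaled to library size. The table lists 17 forms, of which 12 had a mean of at least 1 FPKM; 3 of these were at least 2-fold higher and 7 at least 2-fold lower. The widest gap was in HSPA8-207, which encodes 627 residues: it was at 624 FPKM (39839 counts) with siHNRNPA1 and 1.09 FPKM (65 counts) in control, or 60.8% and 0.0821% of the gene. In control the signal was assigned mainly to HSPA8-212 and HSPA8-222. HSPA8-212, an incompletely annotated 312-residue form, was at 657 FPKM against 245 FPKM with siHNRNPA1. HSPA8-222, a 410-residue form, was at 531 FPKM against 125 FPKM. HSPA8-205 (5.08 FPKM and 53.3 FPKM) and HSPA8-202 (12.1 FPKM and 56.3 FPKM) were lower as well. The 3 forms with the full 646-residue HSC70 frame were close to 0 in both libraries, at 0.0369 FPKM and 0.777 FPKM in sum. All 1924 exonic bases of HSPA8-207 lie within exons of HSPA8-201, 1 of those 3 forms, and HSPA8-207 shares 1506 bases with HSPA8-222 and 994 bases with HSPA8-212. HSPA8-212 (chr11:123059476-123062124) and HSPA8-222 (chr11:123057498-123060386) cover different ends of the gene and share 706 bases. Whether reads of longer messages were split between them was not tested. Forms annotated as protein-coding with a complete frame held 74.6% of HSPA8 FPKM with siHNRNPA1 and 45.1% in control. The ratio of HSPA8 to HSPA1A FPKM was 30.03 and 39.1, so the constitutive gene far exceeded the inducible one in both libraries.

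HSPH1 (ENSG00000120694, chr13:31134974-31162388, minus strand) encodes HSP110, a nucleotide exchange factor that resets HSP70 and works with it in disaggregation. It had 9.49 FPKM (8.98 to 10.01) with siHNRNPA1 and 35.2 FPKM (34.1 to 36.3) in control, from 1326 and 3990 counts. This is a fold of -1.79, or 26.99% of control, and 5.35% of the genes compared had a lower fold. 3 forms were seen in control and listed at 0 with siHNRNPA1: HSPH1-202 (814 residues, 18.6 FPKM in control), HSPH1-209 (860 residues, 5.96 FPKM) and HSPH1-204 (782 residues, 4.81 FPKM). A count of 0 is given an upper limit of 3 counts in place of the exact interval, which among the 1326 of the gene allows a share of up to 0.226%. HSPH1-201 (858 residues) went the other way, at 7.35 FPKM and 3.19 FPKM (fold 0.99), which is 77.5% of the gene with siHNRNPA1 and 9.07% in control. All 3480 bases of HSPH1-202 lie within HSPH1-201, so the value of 0 for the shorter form again concerns overlapping models.

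The HSP90 genes of the cytosol differed from each other. HSP90AA1 (ENSG00000080824, chr14:102080738-102139699, minus strand), the stress-responsive HSP90 alpha, was at 107.5 FPKM (106 to 109.5) with siHNRNPA1 and 417 FPKM (413 to 421) in control, from 11278 and 42836 counts. The fold was -1.95, a level 3.88-fold lower, and 3.73% of the genes compared had a lower fold. HSP90AB1 (ENSG00000096384, chr6:44246166-44253888, plus strand), the constitutive HSP90 beta, was at 1310 FPKM and 1347 FPKM, a fold of -0.04, and was the most abundant of the 10 genes in both libraries. The ratio of HSP90AA1 to HSP90AB1 FPKM was 0.0821 with siHNRNPA1 and 0.309 in control, so the alpha message was the smaller in both and smaller still with siHNRNPA1.

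Within HSP90AA1 the 732-residue form HSP90AA1-201 held a like share, 84.2% and 84.5% of the gene, at 90.6 FPKM and 352 FPKM. The difference was thus in the main form and not in an exchange with another. HSP90AA1-202, which encodes 854 residues with a longer amino terminus, was at 2.97 FPKM and 50.5 FPKM (fold -3.70), and the incomplete HSP90AA1-203 at 0.668 FPKM and 9.58 FPKM (fold -2.67). HSP90AA1-204, annotated for nonsense-mediated decay, was the exception at 13.0 FPKM and 4.08 FPKM (fold 1.46), which is 12.1% and 0.978% of the gene. In HSP90AB1 all 4 forms carry the same 724-residue frame and differ outside it. HSP90AB1-203 was at 1004 FPKM and 1245 FPKM (fold -0.31), HSP90AB1-201 at 246 FPKM and 94.7 FPKM (fold 1.37) and HSP90AB1-202 at 56.4 FPKM and 5.21 FPKM (fold 3.21). HSP90AB1-203 and HSP90AB1-201 differ by only 3 and 13 bases of their own, so the summed level of the frame was nearly equal while the assignment to forms was not.

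HSPB1 (ENSG00000106211, chr7:76302544-76304295, plus strand), the small heat shock protein HSP27, was at 158 FPKM with siHNRNPA1 and 124.7 FPKM in control, a fold of 0.34. Its form shares differed least of the 9 genes with more than 1 form: HSPB1-201, with the 205-residue frame, was at 138 FPKM and 109 FPKM, and HSPB1-203, annotated for nonsense-mediated decay, held 11.8% of the gene in both libraries.

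Across the set, 43 of the 59 forms had a mean of at least 1 FPKM, 16 did not, 8 were at 0 with siHNRNPA1 only and 2 at 0 in both libraries. Of the 43, 8 (18.6%) were at least 2-fold higher, against 21.3% of the 24624 transcripts compared, and 18 (41.9%) were at least 2-fold lower, against 23.4%. In addition to those already named, the higher forms were HSPA8-208 (fold 1.84) and HSPA8-203 (fold 1.06). HSPA8 supplied 7 of the 18 lower forms, and HSPD1, HSP90AA1 and HSPH1 supplied 3 each. The 10 forms annotated for nonsense-mediated decay summed to 42.3 FPKM with siHNRNPA1 and 73.9 FPKM in control, with HSPA9-204 lower and HSP90AA1-204 higher. The largest difference in the share of 1 form was at least 20 percentage points in 4 of the 9 genes with more than 1 form, against 40.6% of the 5715 genes of the table where it could be measured. The number is thus near the background share. In HSPD1 the difference was 95.2 points, larger than in 99.8% of those genes, and it was 68.4 points in HSPH1, 60.7 in HSPA8 and 20.01 in HSPA9. By estimated counts, HSPA9-201 held 98.4% of HSPA9 with siHNRNPA1 and 91.6% in control. HSPA9 thus passed 20 points by FPKM and not by counts. HSP90AB1 had 15.8 points, HSP90AA1 11.1, HSPA1A 2.70, HSPE1 1.75 and HSPB1 0.0306.

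**Figure D3:**
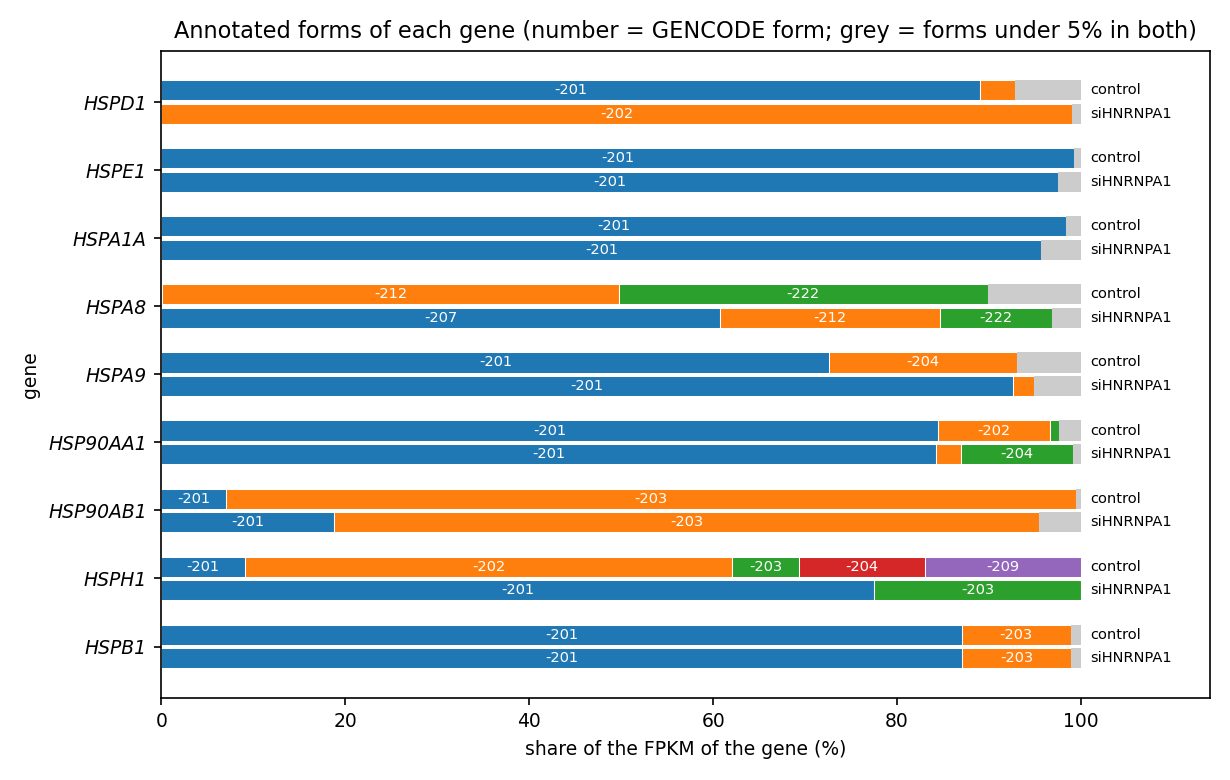
Share of each gene's FPKM held by its annotated forms in the siHNRNPA1 and control libraries (stacked bars, percent; forms that hold little are pooled in grey), 1 library per condition. HSPD1 passes from HSPD1-201 (89.0% in control) to HSPD1-202 (99.03% with siHNRNPA1) and HSPA8 from HSPA8-212 and HSPA8-222 to HSPA8-207, while HSPE1, HSPA1A and HSPB1 look alike in both bars.

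Base composition moved with the folds over the whole table. Across the 11916 genes with a sequence, Spearman's rho of fold with the GC content of the most abundant transcript was 0.58, and with its length -0.46. This is a description across genes of the same pair of libraries, and genes are not independent replicates. The median fold was -0.98 in the fifth of genes lowest in GC and 0.59 in the highest. The 10 chaperone genes span 41.95% to 64.5% GC. HSPD1 (41.98%), HSPH1 (41.95%), HSP90AA1 (43.0%) and HSPA9 (44.7%) are low, HSPA5 (46.0%), HSPA8 (46.7%), HSP90AB1 (47.3%) and HSPE1 (50.2%) are intermediate, and HSPA1A (59.7%) and HSPB1 (64.5%) are high. The median fold of the 100 genes nearest in mean FPKM, GC content and length was then subtracted. HSP90AA1 stood at -1.47 and was the 1 gene still at least 2-fold lower, against 8.41% of genes. None was at least 2-fold higher, against 8.06%. HSPH1 then stood at -0.75, HSPE1 at 0.25, HSPD1 at -0.16, HSPA9 at -0.09, HSP90AB1 at -0.28 and HSPA8 at -0.97. HSPA5 (0.24), HSPA1A (-0.68) and HSPB1 (-0.68) took the other sign. The HSPA8 value rests on a lead form of 1112 bases. The part of composition in the differences was not tested beyond this subtraction.

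**Figure D4:**
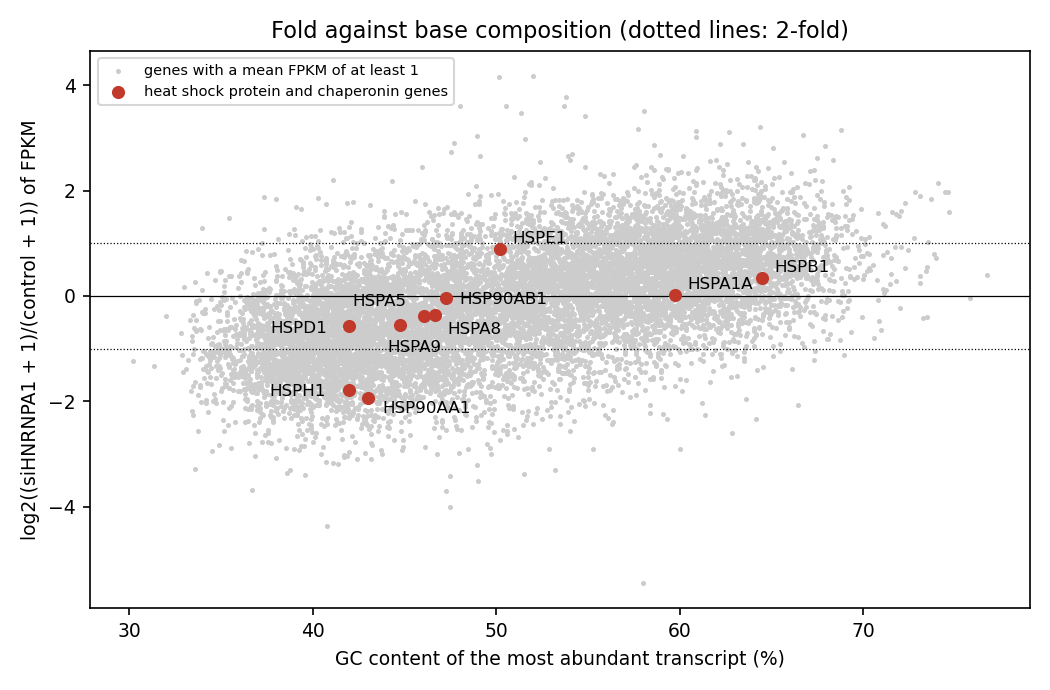
Fold (log2 scale) against the GC content (percent) of the most abundant transcript for the genes with a mean of at least 1 FPKM (grey) and the 10 heat shock protein and chaperonin genes (red), 1 library per condition. The grey cloud climbs with GC content (rho 0.58), and HSP90AA1 and HSPH1 lie in its lower part at 43.0% and 41.95% GC.

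The rest of the chaperone network was read from lists of 141 other genes, of which 121 had a mean of at least 1 FPKM. Among them 16 (13.2%) were at least 2-fold higher and 16 (13.2%) at least 2-fold lower, against 12.4% and 21.9% of all genes, and the median fold was -0.04. In TPM as deposited the counts were 12 and 27, against 10.5% and 27.98% of all genes, and without the mitochondrially encoded genes 10 and 34, against 6.64% and 29.6%. After subtraction of the genes nearest in mean FPKM, GC content and length they were 11 and 8, with a median of 0.21. Of all genes, 8.06% were then higher and 8.41% lower. These shares of all genes are the background for each list that follows, and folds after that subtraction are called subtracted folds. Of the other HSP70, HSP110 and HSP90 genes, 3 of 10 were lower and none was higher, with a median of -0.68, and -0.30 after subtraction. HSPA2, the HSP70 known from spermatogenesis, was at 0.827 FPKM and 8.09 FPKM (fold -2.31), HSPA13 at 2.21 FPKM and 6.28 FPKM (-1.18), and HSPA12A at 0.420 FPKM and 1.90 FPKM (-1.03). HSPA2 had a subtracted fold of -2.32, while HSPA13 (-0.01) and HSPA12A (-0.31) no longer passed 2-fold. By subtracted fold 2 genes of the list were lower and none was higher. HSP90B1, the HSP90 of the endoplasmic reticulum, was within 2-fold at 140.7 FPKM and 269.6 FPKM (-0.93). Only 2 of the 10 other small heat shock proteins, HSPB8 (fold 0.19) and HSPB11 (0.12), had a mean of at least 1 FPKM.

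None of the 8 measured subunits of the cytosolic chaperonin TRiC/CCT, which folds actin and tubulin, reached 2-fold in either direction. Their folds ran from -0.61 (CCT8) to 0.58 (CCT7), with a median of -0.14, and 0.25 after subtraction. Prefoldin, which hands clients to TRiC, had 2 of 6 subunits higher and none lower: PFDN6 was at 119 FPKM and 52.8 FPKM (fold 1.16) and PFDN5 at 203 FPKM and 96.4 FPKM (1.07). Neither passed 2-fold after subtraction, nor without the mitochondrially encoded genes.

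Among the J-domain proteins that deliver clients to HSP70, classes A and B had 2 of 13 higher and 2 lower, with a median of -0.72 and a mean of -0.19. The median turned to 0.24 after subtraction. The counts were then again 2 higher and 2 lower, but DNAJB12 (0.86) and DNAJB4 (-0.27) no longer passed 2-fold. DNAJB2 was at 38.0 FPKM and 10.6 FPKM (fold 1.75) and DNAJB12 at 14.8 FPKM and 6.65 FPKM (1.05), against DNAJB5 at 4.14 FPKM and 13.9 FPKM (-1.53) and DNAJB4 at 1.14 FPKM and 4.57 FPKM (-1.38). Class C had 2 of 21 higher (DNAJC30, fold 1.58, and DNAJC5, 1.36) and 4 lower, including DNAJC6 (-1.90) and DNAJC24 (-1.29). After subtraction this balance turned to 5 higher (DNAJC18, DNAJC30, DNAJC9, DNAJC5 and DNAJC19) and 1 lower (DNAJC6), the median went from -0.15 to 0.45, and DNAJC24 stood at -0.79. The nucleotide exchange factors and cochaperones of HSP70, a list that includes HSPH1, had 3 of 14 higher and 2 lower. The higher ones were HSPBP1, an exchange factor, at 80.2 FPKM and 23.6 FPKM (fold 1.73), STUB1, the ubiquitin ligase CHIP, at 78.7 FPKM and 28.9 FPKM (1.41), and BAG1 at 16.6 FPKM and 5.65 FPKM (1.41). BAG4, at 2.27 FPKM and 6.10 FPKM (-1.12), was lower along with HSPH1. None of HSPBP1 (0.77), STUB1 (0.44), BAG1 (0.85) and BAG4 (0.11) passed 2-fold in subtracted fold. Other genes of the list then did, 2 higher and 1 lower, and the median went from -0.12 to 0.32.

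The HSP90 cochaperones had 1 of 14 lower and none higher, with a median of -0.00. CHORDC1, an HSP90 partner, was at 6.31 FPKM and 30.9 FPKM (fold -2.13), and at -1.47 after subtraction. The kinase-loading CDC37 was within 2-fold at 277 FPKM and 158.1 FPKM (0.81), as was PTGES3, the p23 protein, at 86.3 FPKM and 163 FPKM (-0.91). In the endoplasmic reticulum 3 of 22 genes were higher and 4 lower, among them SDF2L1 (fold 1.63) and CRELD2 (1.41) against ERO1A (-1.48) and SEL1L (-1.30). All 4 lost the call after subtraction (0.58, 0.66, -0.08 and -0.26 in that order), when 1 gene was higher (HERPUD1, 1.23) and 1 lower (HYOU1, -1.08). The mitochondrial chaperones and proteases had 3 of 17 higher, PAM16 (fold 1.39), the matrix protease LONP1 (1.14) and TIMM44 (1.13), and 1 lower, OMA1 (-1.18). These 4 lost the call after subtraction (0.33, 0.59, 0.40 and -0.35), when 2 other genes were higher (GRPEL1, 1.51, and DNAJC19, 1.10) and 1 lower (DNAJA3, -1.55). In TPM the list had 1 higher and 2 lower, and without the mitochondrially encoded genes 1 higher and 4 lower.

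The heat shock factors were measured as well. HSF1, the main stress-activated factor, was at 72.7 FPKM and 46.1 FPKM (fold 0.65), and HSF2 at 1.30 FPKM and 4.45 FPKM (-1.24), so 1 of 3 genes of that list was lower. After subtraction HSF2 stood at -0.61 and HSF1 at -0.11, and HSBP1, a regulator of HSF1, passed 2-fold at 1.33 from a fold of 0.09. Of 22 genes on a list of inducible heat shock response genes, which includes members of the set, 3 were lower (CHORDC1, HSP90AA1 and HSPH1) and 1 was higher, the polyubiquitin gene UBB at 492 FPKM and 187 FPKM (1.39). These are 13.6% lower and 4.55% higher, against 21.9% and 12.4% of all genes. After subtraction UBB stood at 0.59 and HSPH1 at -0.75, and the list had 1 higher (DNAJA1, 1.39), with HSP90AA1, CHORDC1 and BAG3 among those lower. The higher count was 3 with median-ratio scaling, and the lower count 6 without the mitochondrially encoded genes. The median of that list was 0.03 and its mean -0.17, which differ in sign.

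**Figure D5:**
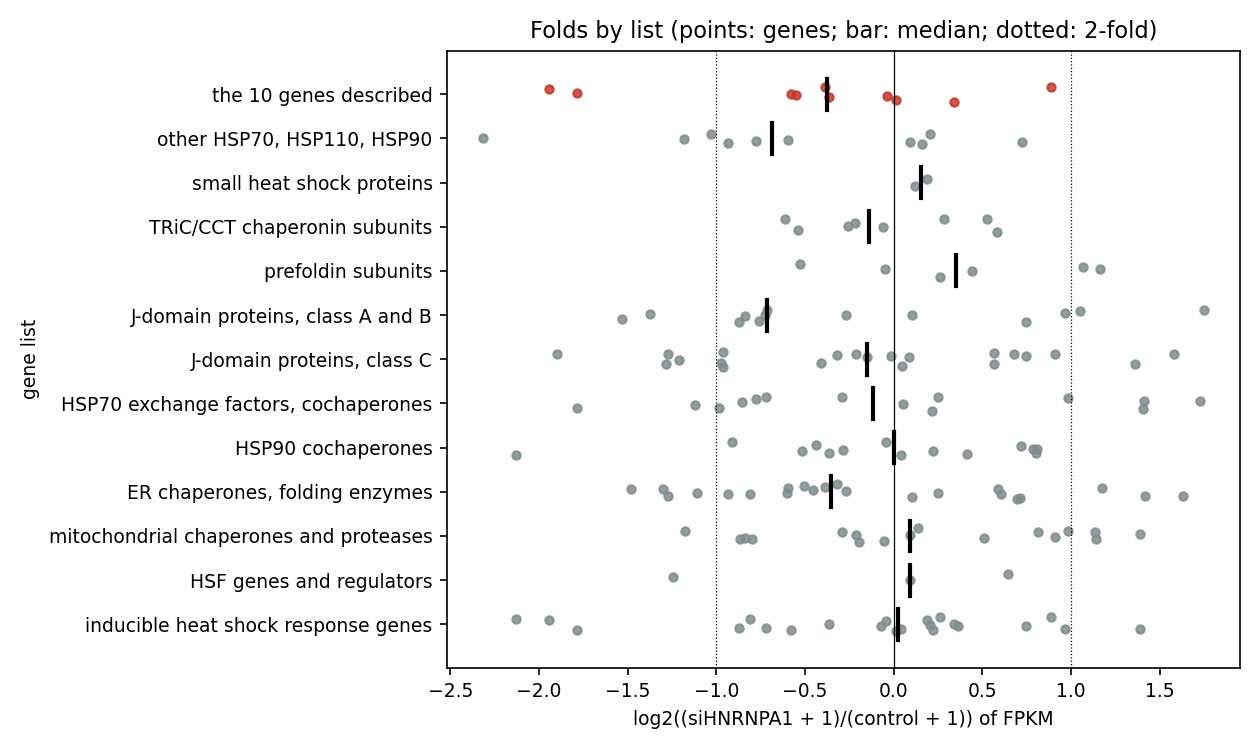
Folds (log2 scale) of the genes on each chaperone list, 1 point per gene with a mean of at least 1 FPKM, with bars for the medians and dotted lines at 2-fold, from 1 library per condition. TRiC/CCT subunits stay between the dotted lines, 2 prefoldin subunits lie above them and 3 of the other HSP70, HSP110 and HSP90 genes lie below.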

How the data were processed

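The siHNRNPA1 and control libraries were prepared from total RNA with a messenger RNA kit, per the labels' protocols. Per the file headers, the authors deposited an estimated count, a TPM and an FPKM for each transcript. Which aligner and quantifier made them is not given in the sources used here. Builds listed in the submitters' processing notes are those of mouse (GRCm38, mm10), but the table holds human identifiers: all 59 transcripts of the 10 genes are in GENCODE release 29 (GRCh38), which gave positions, exons and reading frames. 6 columns of per-sample values matched neither library and were not used. FPKM was summed per gene identifier, with a pseudocount of 1 FPKM and a minimum mean of 1 FPKM; the scripts were tested on simulated data. Named pseudogenes of several of the genes exist in GENCODE 29 (26 for HSPE1, 17 each for HSPD1 and HSPA8) and were not in the table, so reads from them could be counted in the genes. Form shares used genes with at least 2 transcripts and a level of at least 5 FPKM in each library. The genes named are HNRNPA1, the 10 genes with their transcripts and, from each list, up to 4 genes of largest fold or the members of lists of at most 10 genes. POU5F1, SOX2, FOXA2 and the genes named only for passing 2-fold after subtraction were chosen after their values were seen. The genes and lists were chosen with earlier results of these data known. Alternatives were other scalings, pseudocounts, minimums and subtraction of the 100 genes nearest in mean FPKM, GC content and length. Python 3.11.15, numpy 2.4.6, pandas 2.3.3, scipy 1.17.1 and matplotlib 3.10.9 were used. RefSeq promoter sequences (GRCh38.p14) matched all 10 genes.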

Additional observations from a re-analysis of the deposited data

How the results depend on the processing

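No paired analysis was possible because each condition has 1 library. The median fold of the 10 genes (-0.38) was -0.53 in TPM, -0.22 with median-ratio scaling, -0.19 in counts scaled to library size, -0.72 without the mitochondrially encoded genes, -0.48 after subtraction of nearest genes, -0.43 with GC and length weighted over forms (chosen after seeing the data) and -0.30 with protein-coding forms only. The median of all genes moved from -0.13 to -0.28 in TPM, 0.0005 with median-ratio scaling and -0.42 without the mitochondrial genes. The count of members at least 2-fold higher (0) became 1 with median-ratio scaling, HSPE1 at 1.04. The count lower (2) became 1 with either subtraction. HSP90AA1 was at least 2-fold lower in all 9 settings (-2.29 to -1.47) and HSPH1 in 7. HSP90AB1, HSPA5, HSPB1 and HSPA1A took the other sign in 1, 2, 3 and 4 of 9. The other chaperone genes lower (16) were 4 with a pseudocount of 5, 27 in TPM, 34 without the mitochondrial genes, 8 after subtraction, 9 with weighted subtraction and 6 at a minimum of 5 FPKM; those higher (16) were 10 without the mitochondrial genes. The members' forms higher (8) were 5 with a pseudocount of 5. Of all genes, 12.4% were higher and 21.9% lower, against 10.5% and 27.98% in TPM, 16.1% and 18.7% with median-ratio scaling and 6.64% and 29.6% without the mitochondrial genes. The cause of these moves was not tested. With 1 library per condition, depth limits counting error only.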
